A study of Mus musculus with 2 samples.

Results

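The genes described here are 34 genes of cortical inhibitory interneurons and of neuropeptides, out of 32531 genes counted in ribosome-bound RNA of the mouse cerebral cortex. They were taken by symbol from a list drawn up by gene identity, with earlier results of these data known, and all 34 had a row in both count tables. The RNA came from untreated adult Gdnf-EGFP/Rpl10a mice (ES2243), in which ribosomal protein L10a tagged with enhanced green fluorescent protein is expressed under regulatory sequences of Gdnf. Any cortical cell in which those sequences are active can carry the tag. Tagged polysomes were pulled from cortical homogenate with anti-EGFP antibodies (translating ribosome affinity purification, TRAP) to profile pericytes, the mural cells of capillaries. The single group holds 2 purified libraries, named IP1 and IP2, and the labels name neither the sex nor whether each sample came from 1 animal or a pool. Unpurified cortex RNA was not used here, so the values are levels in the purified RNA and not enrichments over cortex.

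Interneurons are the local neurons of the cortex that release GABA, the main inhibitory transmitter, which the glutamate decarboxylases Gad1 and Gad2 make from glutamate. In the mouse they arise mostly from the medial and caudal ganglionic eminences of the embryonic forebrain. Medial cells keep the transcription factor Lhx6 and divide into classes with parvalbumin (Pvalb) or somatostatin (Sst), and caudal cells include classes with vasoactive intestinal peptide (Vip) or with Ndnf and reelin. Many interneurons add a neuropeptide to GABA, cut from a longer precursor and stored in dense-core vesicles. In mouse striatum, Gdnf itself is known to be made mainly by parvalbumin interneurons.

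In genes, 65200231 reads were counted for IP1 and 72732502 for IP2, and levels are given as counts per 1000000 of these reads (CPM). Where a gene had no reads, counting error still allows up to 3, a limit of 0.046 CPM for IP1 and 0.041 CPM for IP2. Pericyte markers fixed for this comparison were at or above 10 CPM in both libraries for 8 of 8 genes, with Rgs5 at 4451 ± 551 CPM, Vtn at 491 ± 134 CPM and Abcc9 at 451 ± 171 CPM (SD, n = 2). So were 9 of 10 excitatory neuron markers and 8 of 8 oligodendrocyte precursor markers, so the purified RNA was not restricted to mural messages. In such bulk RNA, fewer cells of a type and less RNA per cell cannot be told apart. CPM values were not divided by gene length, because no transcript lengths were used here. They compare a gene between libraries, and the reads of different genes are set side by side without ranking the genes' levels.

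Of the 34 genes, 16 reached 10 CPM in both libraries, against a background of 28.3% of all listed genes (9207 of 32531). Of those listed genes, 12951 had no count in either library, while each of the 34 was counted. Among the 19580 genes with a count, the same 9207 reached 10 CPM in both, a share close to that of the 34 genes. A further 4, Dlx1, Pvalb, Calb2 and Nos1, reached 10 CPM in 1 library only. At 1 CPM or more in both libraries there were 30 genes, against 41.3% of all listed genes, or 13446 of the 19580 with a count. The 4 below it were Sp8, Cort, Crh and Chodl. The median over the 34 genes was 10.9 CPM in IP1 against 11.8 CPM in IP2. Over all listed genes, those without a count included, it was 0.18 and 0.096 CPM. Together the 34 genes took 0.228% of the counted reads in IP1 and 0.230% in IP2. Gad2 and Sox6 alone made up 52.5% of those reads in IP1 and 50.9% in IP2.

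Upstream sequences of 3 peptide precursor genes are shown because Sst and Vip had lower CPM in IP1 and Tac1 higher, and because the somatostatin gene is the classic example of control by cyclic AMP. Each stretch is the 250 bases before a start site listed by RefSeq (GRCm38.p6, the mm10 assembly), 5′ to 3′ on the gene's strand. That site need not be the outer end of the gene's span: the Sst stretch lies inside the span given for the gene and the Vip stretch runs a little into it. Capitals mark the cyclic AMP response element TGACGTCA and its half-site TGACG on either strand (CGTCA on the other). The stretches are chr16:23890845-23891094 (minus strand) for Sst, chr10:5638968-5639217 (plus strand) for Vip and chr6:7554811-7555060 (plus strand) for Tac1.
Sst: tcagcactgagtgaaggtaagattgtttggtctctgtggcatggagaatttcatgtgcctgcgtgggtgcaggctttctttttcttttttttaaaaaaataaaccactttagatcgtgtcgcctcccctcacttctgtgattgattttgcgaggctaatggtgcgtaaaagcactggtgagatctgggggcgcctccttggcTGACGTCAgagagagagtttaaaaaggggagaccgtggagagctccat
Vip: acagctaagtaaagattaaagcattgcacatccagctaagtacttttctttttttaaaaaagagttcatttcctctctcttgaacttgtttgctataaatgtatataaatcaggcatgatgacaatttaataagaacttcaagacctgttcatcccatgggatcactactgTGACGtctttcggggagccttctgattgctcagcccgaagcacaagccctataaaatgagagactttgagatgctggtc
Tac1: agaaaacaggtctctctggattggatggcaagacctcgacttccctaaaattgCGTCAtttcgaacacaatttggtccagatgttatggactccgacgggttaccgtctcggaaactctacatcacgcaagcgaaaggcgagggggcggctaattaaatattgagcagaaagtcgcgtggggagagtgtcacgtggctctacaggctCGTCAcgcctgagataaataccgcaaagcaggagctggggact
The Sst stretch held the full element, which starts 48 bases before the start site and contains the half-site on both strands. The Vip stretch held 1 half-site at 79 bases and the Tac1 stretch held 2, at 197 and 43 bases. The full element was found in 1.55% of 32851 such windows and the half-site in 17.8%. Windows were listed for 26 of the 34 genes, and 10 of these 26 genes held a half-site in at least 1 window, against 19.8% of 27025 genes with a window. Among them were Gad2, Dlx2, Cck, Crhbp, Nos1, Cort and Sox6. A match is a description of the letters and not a site of binding.

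**Figure D1:**
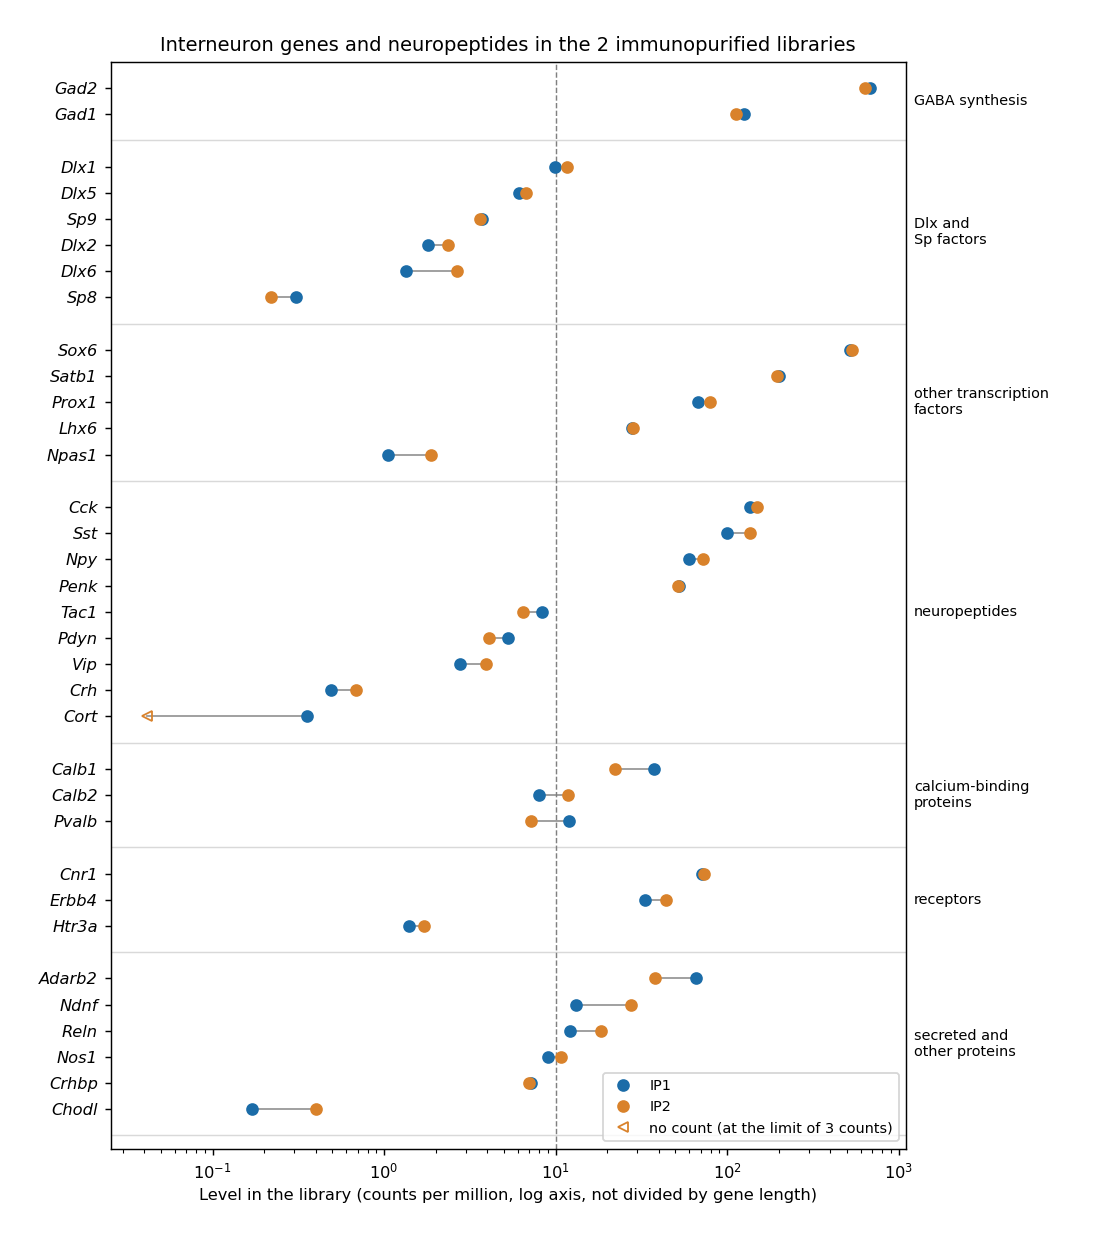
Level of each of the 34 genes in IP1 (blue) and IP2 (orange) in CPM on a log axis, not divided by gene length, grouped by role, with a dashed line at 10 CPM and a grey line joining the 2 libraries. The genes span from 680 CPM for Gad2 in IP1 to no count for Cort in IP2, drawn as an open triangle at the limit of 3 counts.

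Both GABA-making enzymes were well above the 10 CPM mark in both libraries. Gad2 (chromosome 2, 22621015 to 22693877, mm10) was at 680 CPM in IP1 against 639 CPM in IP2. Gad1 (chromosome 2, 70561303 to 70602014) was at 126 CPM in IP1 against 113 CPM in IP2. Each was slightly higher in IP1, by a ratio of IP1 over IP2 of 1.06 for Gad2 and 1.12 for Gad1. Gad2 took 5.39 reads for each Gad1 read in IP1 and 5.67 in IP2, a log2 ratio of reads of 2.47 ± 0.05 (SD, n = 2). That ratio is one of reads per gene, and its log2 value differed by -0.07 between the libraries (IP1 minus IP2).

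The other genes of GABA handling were also counted, with 6 of 6 at or above 10 CPM in both libraries and a list median of 62.3 CPM in IP1 against 70.3 CPM in IP2. Aldh5a1, which completes GABA breakdown in mitochondria, was at 146 CPM in both. Slc6a13, a GABA transporter known in the mouse from meninges and vessels, was at 62.5 CPM in IP1 against 64.0 CPM in IP2. Slc32a1, the vesicular GABA transporter, was named after its values were seen because it is a defining gene of inhibitory neurons. It was at 17.9 CPM in IP1 against 12.95 CPM in IP2, a ratio of 1.38. The glial transporter Slc6a11, also named after its values were seen, lay 1.5-fold apart or more, at 35.6 CPM in IP1 against 76.6 CPM in IP2.

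The Dlx homeobox genes specify forebrain GABA neurons and lie in pairs, Dlx1 with Dlx2 on chromosome 2 (9426 bases apart) and Dlx5 with Dlx6 on chromosome 6 (9830 bases apart). All 4 had lower CPM in IP1 than in IP2, where 44.7% of 17306 genes with 10 or more counts were lower in IP1. Each alternative way of scaling the libraries lowered all log2 ratios of IP1 over IP2 by one amount, so none could change this direction. Dlx1 (71528113 to 71533981) was at 9.94 CPM in IP1 against 11.7 CPM in IP2, and Dlx2 (71543408 to 71546754) at 1.79 and 2.35 CPM. Dlx5 (6877801 to 6882068) was at 6.10 CPM in IP1 against 6.68 CPM in IP2, a ratio of 0.914 whose counting interval of 0.798 to 1.05 includes 1. Dlx6 (6863334 to 6867970) was at 1.35 CPM in IP1 against 2.65 CPM in IP2, a ratio of 0.509 (exact 95% counting interval 0.391 to 0.658). Dlx6 was the only one of the 4 past 1.5-fold, a mark that 31.9% of the 17306 genes passed in either direction.

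Noncoding genes overlap some of these. Dlx6os1, a long noncoding RNA whose span covers part of Dlx6, had 1060 counts in IP1 and 921 in IP2, and Dlx6 itself had 88 and 193. Dlx1as, antisense to Dlx1, had 573 and 698 counts. Reads that match both genes of a pair were left unassigned by the counting, and without a known strand setting the remaining reads cannot be told apart, so the levels of Dlx1 and Dlx6 are uncertain. By their RefSeq spans 13 of the 34 genes overlap another gene, and for 4 of them (Gad1, Gad2, Dlx1 and Dlx6) that gene has a row in the count tables. Of the zinc finger factors, Sp9, which acts in developing forebrain inhibitory neurons, was at 3.73 CPM in IP1 against 3.62 CPM in IP2. Sp8, a factor of caudal and olfactory bulb interneurons, was at 0.31 and 0.22 CPM, from 20 and 16 counts.

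Of the factors of the medial lineage, Lhx6 (chromosome 2, 36081950 to 36105992) was at 27.9 CPM in IP1 against 28.3 CPM in IP2, a ratio of 0.985 with an interval that includes 1. Sox6, which acts after Lhx6 in these cells and is also used by oligodendrocyte precursors, was at 520 and 532 CPM. Satb1, needed for maturation of somatostatin cells and also used by excitatory neurons, was at 202 and 194 CPM. All 3 were within 1.04-fold between the libraries. Oligodendrocyte precursor markers summed to 2464 CPM in IP1 against 3227 CPM in IP2 over 8 genes, none of them at 0. Olig1 was at 949 ± 50.8 CPM, Pdgfra at 479 ± 217 CPM and Sox10 at 360 ± 10.7 CPM (SD, n = 2), and their part in the Sox6 level was not tested. Prox1, a factor of caudal interneurons and of the oligodendrocyte lineage, was at 67.9 CPM in IP1 against 79.0 CPM in IP2. Npas1, a factor of interneuron subsets, was at 1.06 CPM in IP1 against 1.87 CPM in IP2, a ratio of 0.566.

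Of the 9 neuropeptide precursors, Cck, Sst, Npy and Penk were at or above 10 CPM in both libraries. Tac1, Pdyn and Vip lay between 1 and 10 CPM, and Crh and Cort under 1 CPM. Sst (chromosome 16, 23889573 to 23891342), whose peptide damps release from many cells, was at 99.2 CPM in IP1 against 135 CPM in IP2, a ratio of 0.733 (0.710 to 0.756). Npy, found in somatostatin and neurogliaform cells, was at 59.9 CPM in IP1 against 72.4 CPM in IP2, a ratio of 0.828. Vip, which marks interneurons that mainly inhibit other interneurons, was at 2.76 CPM in IP1 against 3.92 CPM in IP2, a ratio of 0.705 (0.581 to 0.852). These 3 peptides all had lower values in IP1, and each ratio was under the 1.5-fold mark. Sst took 35.9 reads for each Vip read in IP1 and 34.5 in IP2, a log2 ratio of 5.14 ± 0.04 (SD, n = 2). These proportions were close, but Vip rested on 180 reads in IP1 and 285 in IP2. Its counting error is wider than that SD.

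The other peptides did not share one direction. Cck, which is made by a class of basket cells and, in the cortex, also by excitatory neurons, was at 136 CPM in IP1 against 149 CPM in IP2. Penk, the enkephalin precursor, was at 52.2 and 51.9 CPM and did not keep its sign between scalings. Tac1, the substance P precursor found in many parvalbumin cells, was at 8.36 CPM in IP1 against 6.49 CPM in IP2, a ratio of 1.29 (1.14 to 1.46). Pdyn, the dynorphin precursor, was at 5.28 and 4.08 CPM, also a ratio of 1.29. Crh, the corticotropin-releasing hormone, had 32 counts in IP1 and 50 in IP2, and its interval included equality. Cort, a relative of somatostatin, had 23 counts in IP1 and 0 in IP2. Against the limit of 3 counts in IP2, and with the 23 counts of IP1 taken as they stand, Cort was at least 8.55-fold higher in IP1.

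Penk, Tac1 and Pdyn are also abundant in projection neurons of the striatum, which lies under the cortex. Of 8 markers of those neurons, 5 reached 10 CPM in both libraries and none was at 0. They summed to 241 CPM in IP1 against 257 CPM in IP2. Pde10a was at 104 ± 9.37 CPM, Adora2a at 46.3 ± 4.30 CPM and Ppp1r1b at 45.7 ± 2.46 CPM (SD, n = 2). Their part in the peptide levels was not tested. Excitatory neuron markers, which bear on Cck, Cnr1, Calb1 and Satb1, summed to 1717 CPM in IP1 against 1535 CPM in IP2 over 10 genes, none at 0. Camk2a was at 1082 ± 104 CPM, Rorb at 192 ± 24.1 CPM and Slc17a7 at 97.9 ± 4.38 CPM, and their part was not tested either.

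Peptide precursors outside the set were also counted. Of 15 other precursor genes, 0 reached 10 CPM in both libraries, against 28.3% of all listed genes. Under 1 CPM in both were 10 of the 15, as were 18142 of all 32531 listed genes. Adcyap1, the PACAP precursor, was at 3.79 ± 0.21 CPM, and Nts, the neurotensin precursor, at 3.20 ± 0.10 CPM (SD, n = 2). Grp, the gastrin-releasing peptide precursor, was at 2.33 CPM in IP1 against 0.27 CPM in IP2. The genes of neuromedin U (Nmu), oxytocin (Oxt) and melanin-concentrating hormone (Pmch) had no count, which allows up to 0.046 CPM in IP1 against 0.041 CPM in IP2. The machinery that cuts and stores peptides had 11 of 13 genes at or above 10 CPM in both libraries, against the same 28.3%. Its list median was 57.4 CPM in IP1 against 69.5 CPM in IP2. Chgb, a granin of dense-core vesicles, was at 303 ± 8.71 CPM, Cadps, which primes those vesicles, at 224 ± 25.7 CPM and Cpe, a carboxypeptidase that trims precursors, at 187 ± 40.2 CPM.

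Of 19 receptor genes for these peptides, 6 were at or above 10 CPM in both libraries, near the share of 28.3% of all listed genes. Among the 19580 genes with a count, 9207 were at that level. The receptor median was 3.21 CPM in IP1 against 2.75 CPM in IP2, where all listed genes, those without a count included, had 0.18 and 0.096 CPM. The somatostatin receptor Sstr1 was at 21.3 CPM in IP1 against 24.996 CPM in IP2, and the neuropeptide Y receptor Npy1r at 22.1 and 21.8 CPM. Oprd1, the delta opioid receptor, was at 16.4 CPM in IP1 against 21.8 CPM in IP2. Sstr5, Npy5r and Cckar were under 1 CPM in both. Of the 17 receptor genes with 10 or more counts, 5 lay 1.5-fold apart or more, 1 with IP1 higher and 4 with IP2 higher, against 31.9% of all 17306 genes in either direction. Among these, named after their values were seen, the neuropeptide Y receptor Npy2r was at 3.85 CPM in IP1 against 1.64 CPM in IP2. The kappa opioid receptor Oprk1 was at 1.63 CPM in IP1 against 4.92 CPM in IP2. Crhr2, a receptor of the Crh peptide family, had 4 counts in IP1 and 98 in IP2. Crhbp, which binds and inactivates Crh and is known from somatostatin cells, was at 7.16 CPM in IP1 against 6.998 CPM in IP2.

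**Figure D2:**
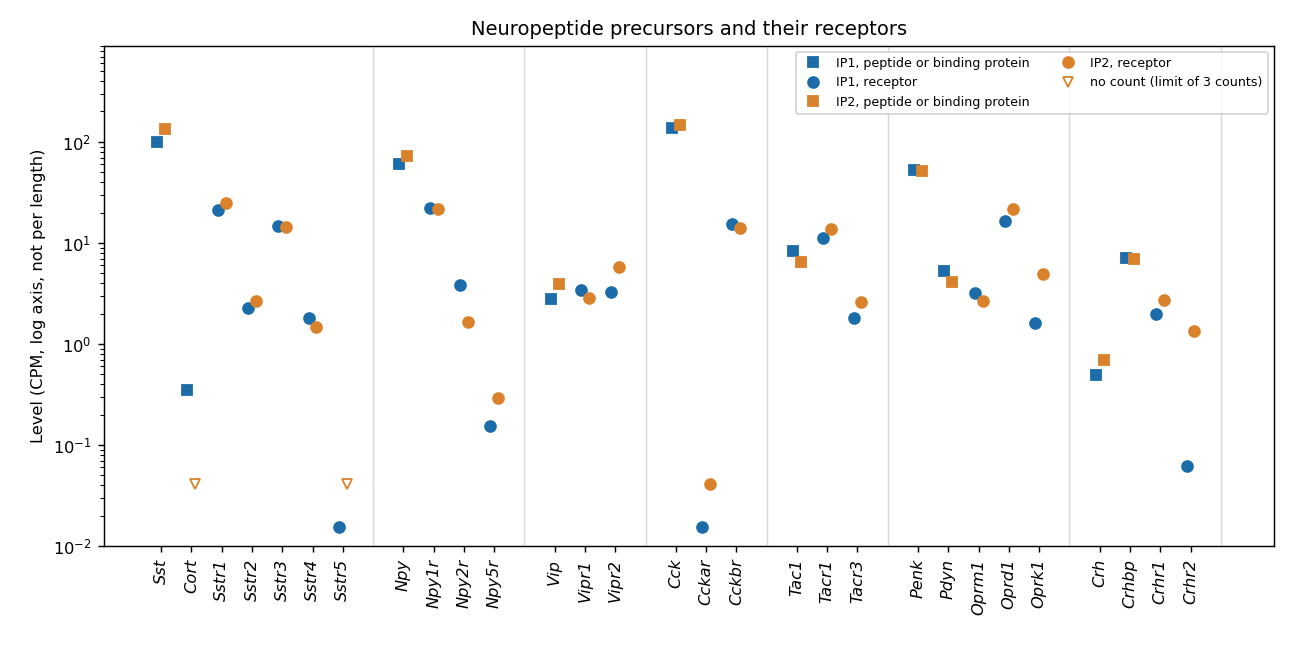
Level in CPM (log axis, not per length) of peptide precursors and Crhbp (squares) and of their receptors (circles) in IP1 (blue, left) and IP2 (orange, right), by peptide family, with open triangles at the limit of 3 counts for genes with no count. Sst, Npy, Cck and Penk lie above 50 CPM in both libraries, while Sstr5 and Cckar lie under 0.05 CPM.

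The calcium-binding proteins, used since early anatomical work to divide interneurons, did not move together. Pvalb (chromosome 15, 78191112 to 78206400) was at 11.9 CPM in IP1 against 7.23 CPM in IP2, a ratio of 1.65 (1.48 to 1.85). Calb1, calbindin, also used by upper-layer excitatory neurons, was at 37.3 CPM in IP1 against 22.2 CPM in IP2, a ratio of 1.68 (1.58 to 1.79). Calb2, calretinin, of caudal interneurons, was at 7.98 CPM in IP1 against 11.9 CPM in IP2, a ratio of 0.671 (0.601 to 0.749). Pvalb and Calb1 were thus above 1.5-fold towards IP1 and Calb2 was lower in IP1. Pvalb rested on 779 reads in IP1 and 526 in IP2. Sst took 8.30 reads for each Pvalb read in IP1 and 18.7 in IP2, a log2 ratio of 3.64 ± 0.83 (SD, n = 2).

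The receptor genes of the set had ratios of IP1 over IP2 under 1, as 44.7% of the 17306 genes did, and for 2 of the 3 the counting interval includes equality. Erbb4, the neuregulin receptor of interneurons, was at 33.4 CPM in IP1 against 43.8 CPM in IP2. Htr3a, the ion channel serotonin receptor of caudal interneurons, was at 1.40 and 1.72 CPM. Cnr1, the cannabinoid receptor of Cck basket cells and of excitatory neurons, was at 71.5 CPM in IP1 against 73.6 CPM in IP2. Of 8 partner genes of reelin and neuregulin signalling, 5 reached 10 CPM in both libraries. At least 1.5-fold lower in IP1 were 4, Lrp8, Erbb2, Erbb3 and Nrg2, against 13.7% of all 17306 genes. Of these only Lrp8 had a mean of 10 CPM or more, where 11% of genes passed the mark in either direction. Erbb2 and Erbb3, named after their values were seen, lay at 1 to 10 CPM, where 43.2% passed it. Nrg2 lay under 1 CPM, where 77.5% did. Dab1, the adaptor of reelin signalling, was at 186 ± 26.0 CPM, and the reelin receptors Vldlr and Lrp8 at 70.2 ± 16.8 and 43.0 ± 19.6 CPM (SD, n = 2). Nrg2, a neuregulin, was at 0.25 CPM in IP1 against 0.52 CPM in IP2.

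Of the genes with a mean of 10 CPM or more, the caudal interneuron genes Ndnf and Adarb2 differed most between the libraries, in opposite directions. Ndnf (chromosome 6, 65671611 to 65712323), a secreted protein of neurogliaform cells, was at 13.2 CPM in IP1 against 27.4 CPM in IP2. Its ratio of 0.481 (0.443 to 0.521) was lower than that of all but 0.78% of 9656 genes at this level. Adarb2 (chromosome 13, 8202526 to 8768762), an editing enzyme relative that marks caudal cells, was at 65.7 CPM in IP1 against 37.9 CPM in IP2. Its ratio of 1.74 (1.65 to 1.82) exceeded that of 98.4% of the same genes. Ndnf took 0.200 reads for each Adarb2 read in IP1 and 0.723 in IP2, so these 2 caudal genes moved apart by 3.61-fold. Reln, the matrix protein reelin, of neurogliaform and some somatostatin cells, was at 12.1 CPM in IP1 against 18.5 CPM in IP2, a ratio of 0.656. Nos1, nitric oxide synthase, was at 9.02 CPM in IP1 against 10.8 CPM in IP2. Chodl, which with Nos1 marks long-range somatostatin cells, had 11 counts in IP1 and 29 in IP2, a ratio of 0.423 with a wide interval (0.191 to 0.873).

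In all, 9 of the 34 genes lay at least 1.5-fold apart, which is no more than the background of 31.9% of 17306 genes with 10 or more counts. All 34 genes passed that count filter. With IP1 higher there were 4 (Adarb2, Calb1, Pvalb and Cort), against 18.1% of all genes, and with IP2 higher 5 (Ndnf, Dlx6, Npas1, Chodl and Reln), against 13.7%. Calb2, at a ratio of 0.671, lay just short of the mark and passed it under 2 of the other scalings, and Reln, at 0.656, lay just past it. Among genes with a mean of 10 CPM or more it was 4 of 17, against 11% of 9656 genes. At 1 to 10 CPM it was 3 of 13, against 43.2%, and under 1 CPM 2 of 4, against 77.5%. The median log2 ratio of IP1 over IP2 was -0.13 over the 34 genes, also with Cort at its bound, and 0.06 over all 17306. IP1 was higher for 13 genes and IP2 for 21, and the sign of 3 (Penk, Crhbp and Sp9) flipped between scalings. These ratios compare 2 libraries of 1 group, so there is no replicate check on them and no p-value is given.

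**Figure D3:**
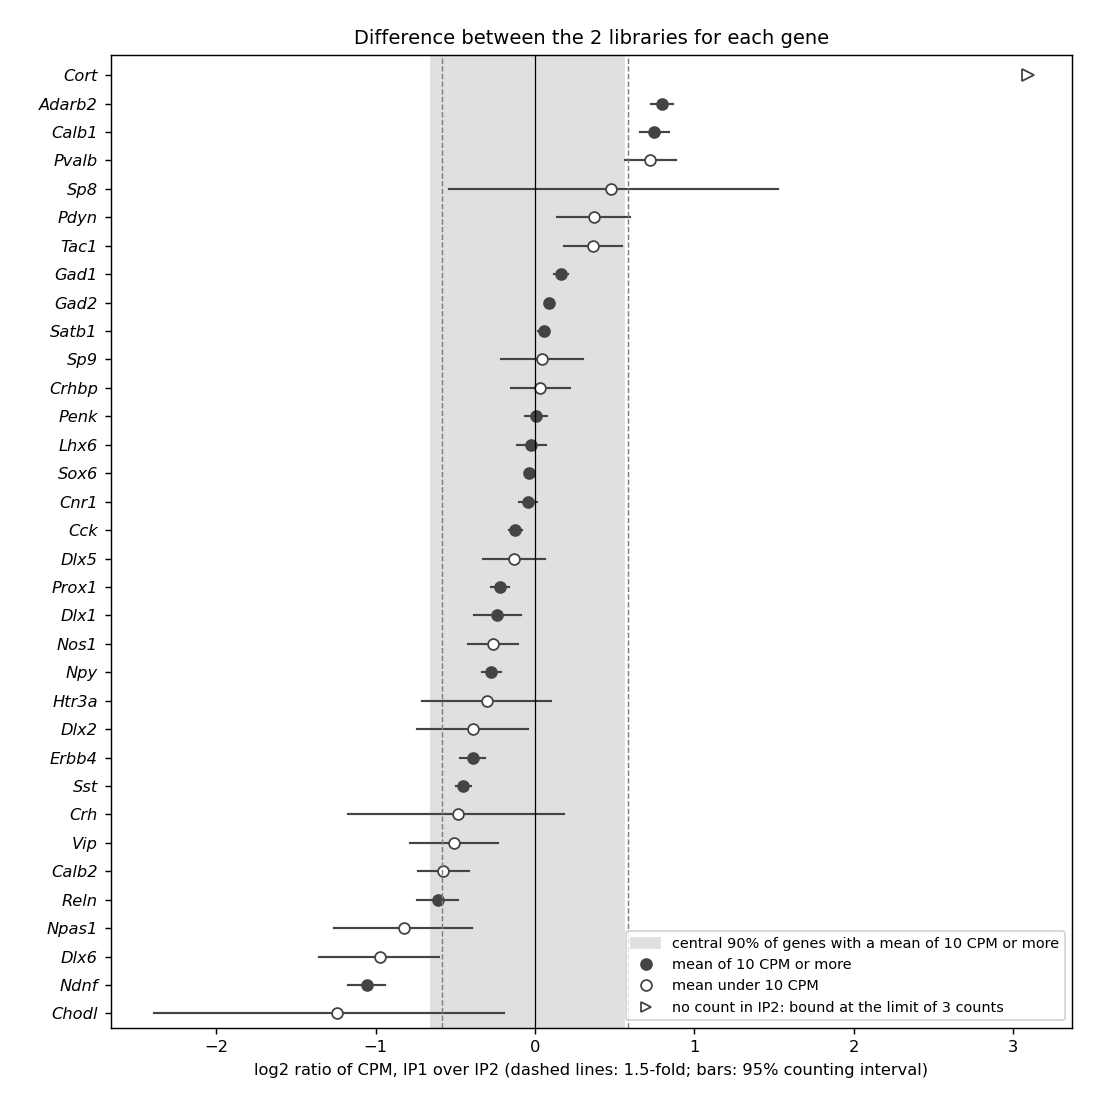
Log2 ratio of CPM, IP1 over IP2, for each of the 34 genes, with exact 95% counting intervals as bars, dashed lines at 1.5-fold and a grey band for the central 90% of genes with a mean of 10 CPM or more. Adarb2 and Calb1 lie right of the band and Ndnf left of it among the filled points, and Cort, with no count in IP2, is drawn as a bound at the limit of 3 counts.

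Set side by side by lineage, markers of medial and of caudal interneurons had ratios that spread widely and overlapped. Of 10 medial markers, 5 were higher in IP1 and 5 in IP2, with a median log2 ratio of 0.01. Of 11 caudal markers, 2 (Adarb2 and Sp8) were higher in IP1 and 9 in IP2, with a median of -0.30. The counting intervals of Sp8 and, among those higher in IP2, of Htr3a and Cnr1 include equality. Over all genes 55.3% were higher in IP1. The single medial gene Lhx6 took 0.424 reads for each Adarb2 read in IP1 and 0.747 in IP2, a log2 ratio of -0.83 ± 0.58 (SD, n = 2). The median CPM of medial over caudal markers was 0.865 in IP1 and 0.488 in IP2, a log2 ratio of -0.62 ± 0.58 (SD, n = 2). Without Satb1, Sox6, Prox1, Cck and Cnr1, which other cortical cells also use, that mean log2 ratio was 0.27. It was then positive in IP1 and still negative in IP2, so the direction turned on these 5 genes in IP1 only. Neither ratio is corrected for gene length.

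Other interneuron genes outside the set had a median log2 ratio of 0.00, with 10 of 17 at or above 10 CPM in both libraries. Nr2f2, a caudal lineage factor also known from vessels and other tissues, was at 336 ± 19.8 CPM, the fast potassium channel Kcnc1 at 138 ± 10.03 CPM and Nxph1, a neurexin ligand, at 130 ± 8.36 CPM (SD, n = 2). Of these 17 genes, 2 lay past 1.5-fold with IP1 higher and 2 with IP2 higher, against 18.1% and 13.7% of all 17306 genes. Both forebrain patterning factors Lhx8 and Nkx2-1, named after their values were seen, passed the mark in opposite directions. Their means lay between 1 and 10 CPM, where 43.2% of 4300 genes passed it. Lhx8 was at 8.87 CPM in IP1 against 3.44 CPM in IP2, and Nkx2-1 at 5.67 and 11.3 CPM. Beside the members, oligodendrocyte precursor markers had a median log2 ratio of -0.70, pericyte markers -0.57 and excitatory markers 0.14. Pericyte markers summed to 6324 CPM in IP1 against 6174 CPM in IP2, with none at 0. Rgs5 held most of these sums, at 4841 CPM in IP1 against 4061 CPM in IP2. Of the 8 pericyte markers 2 were higher in IP1 and 6 in IP2. The part of these shifts in the values of interneuron genes was not tested.

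**Figure D4:**
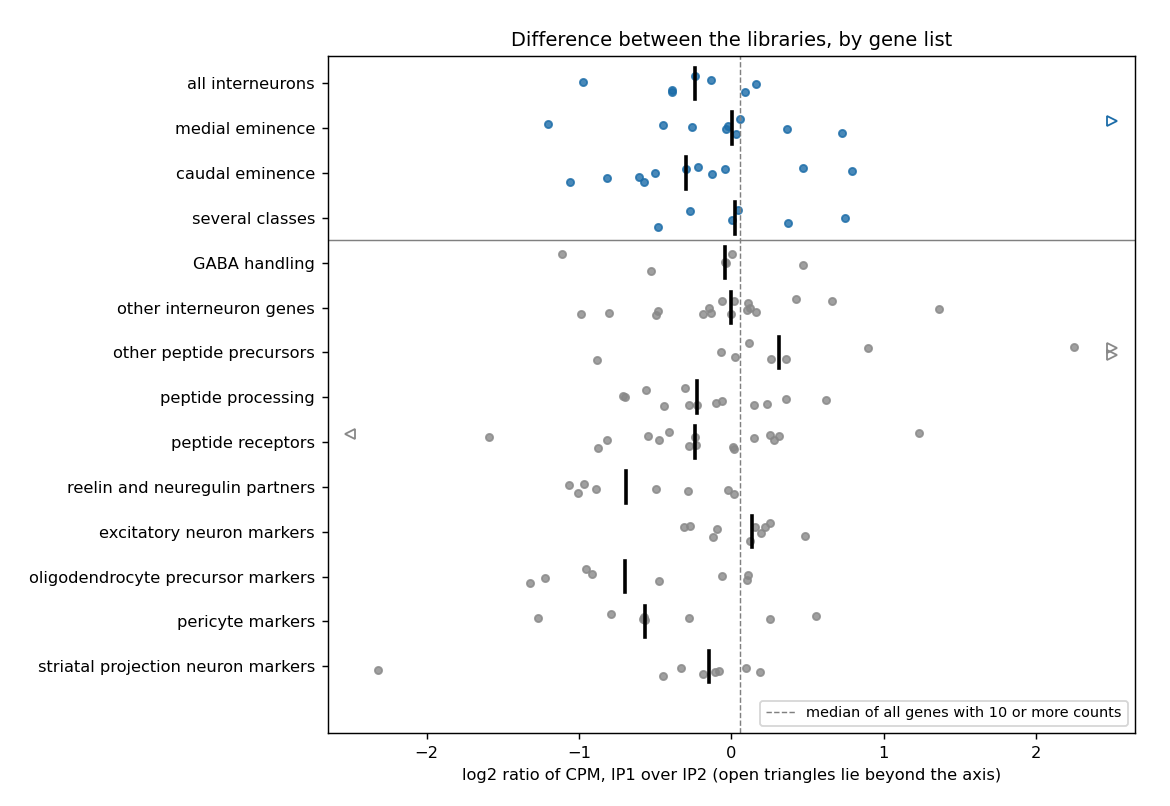
Log2 ratio of CPM, IP1 over IP2, of each gene with 10 or more counts (points), by list, for the 34 genes split by lineage (blue, above the line) and for other lists (grey), with the list median as a black bar and the median of all genes dashed. The caudal median lies at -0.30 and the medial one at 0.01, with points of both lists on either side of 0.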

How the data were processed

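RNA bound to tagged ribosomes was measured in 2 libraries of 1 group. STAR 2.0.0e, HTSeq and the mm10 build are named per the submitters' processing notes. Neither the gene annotation nor the strand setting is given in the sources used here. The deposited values are raw counts per gene symbol, 1 table a library. Summary lines and a row named unknown (1 read in IP1, 0 in IP2) were left out. Genes held 58.1% (IP1) and 57.7% (IP2) of listed reads.

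Counts were divided by the library total to give CPM. Ratios are IP1 over IP2. Log2 ratios, and the 1.5-fold calls made on them, add a prior of 0.5 counts to each library, and printed folds do not. Intervals are exact conditional binomial 95% intervals (scipy 1.17.1) and cover counting error only, since reads carry no molecular identifiers. Calls and intervals were tested on simulated data that held counting error only, so other spread between libraries was not covered by that test. Alternative scalings came from edgeR 4.0.16 and DESeq2 1.42.0 in R 4.3.3. Other software was Python 3.11.15, numpy 2.4.6, pandas 2.3.3 and matplotlib 3.10.9. Comparisons per transcript length were planned. No transcript or protein lengths were at hand, so ratios of reads are given. All 34 members were named, and of each other list the 3 genes with the highest mean CPM and up to 3 under 1 CPM in both libraries. A gene that this rule names is not reported here. The members and lists were chosen with earlier results of these data known. Positions are from RefSeq's GRCm38.p6 table, where all 34 symbols matched.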

Additional observations from a re-analysis of the deposited data

How the results depend on the processing

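With a threshold of 1 CPM, 30 genes passed in both libraries, against 16 at 10 CPM. A ratio of 2 left 3 of the 9 genes past 1.5-fold, and keeping only genes with a mean of 10 CPM or more left 4. The mean log2 ratio of the medial over the caudal median changed sign to 0.27 without the 5 genes also used by other cortical cells. The sign changed in IP1 and not in IP2. With 1 library left out, 17 to 19 genes reached 10 CPM, and the log2 ratios of reads ranged from 2.43 to 2.504 for Gad2 over Gad1, 3.05 to 4.23 for Sst over Pvalb, 5.11 to 5.17 for Sst over Vip, -1.24 to -0.42 for Lhx6 over Adarb2 and -1.03 to -0.21 for the medial over the caudal median. Scaling by edgeR's TMM or DESeq2 size factors gave 10 genes past 1.5-fold, Calb2 being the one added, and moved the members' median log2 ratio to -0.18, with a shift of -0.05 to -0.06 in the median of all genes. Leaving Rn45s out of the totals gave 17 genes at 10 CPM. Ratios per coding length were not run, as no lengths were at hand. No paired analysis was possible because there is 1 group. With 2 libraries of 1 group, the spread may be technical, and genes under 1 CPM rest on few counts.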
